A study of Drosophila melanogaster with 3 samples.

Results

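ORC2 bound the X chromosome of S2-DRSC cells at 743 listed sites, which are described here. S2-DRSC is a Drosophila melanogaster line of male cells that was started from embryos late in development. The sites are all peaks placed on sequence X in the authors' list for the whole series, out of 4230 peaks in all; 2 further peaks on the separate heterochromatin sequence of the X are not among them. The lists of the single samples held 1160 X peaks in replicate 1 and 1351 in replicate 2. The whole-series list is not independent of these: each of its sites overlapped a peak in both replicates. At the 10 highest-scoring X sites, the whole-series score was the mean of the replicate scores. Both samples are chromatin immunoprecipitations from asynchronous cultures with a crude rabbit polyclonal serum against full-length ORC2, from separate extractions. An input DNA sample, the third of the series, was not analysed here. The labels name no treatment, genotype or second condition, and do not tell whether each extraction had its own culture.

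ORC2 belongs to the origin recognition complex, which binds chromosomes before S phase and loads the replicative helicase at places where DNA replication can start. In Drosophila the complex follows no strict consensus sequence and is found largely in open chromatin, often near active start sites. In male flies the X is present as a single copy, and the dosage compensation (MSL) complex binds it and raises its transcription. The other large arms, 2L, 2R, 3L and 3R, carried 3419 whole-series peaks and serve as background. With 1 group of 2 samples and peaks that lie in clusters, no difference between the X and these arms was tested. The main values are instead given for both replicates, and many of them for every arm. Others are given for the whole-series list only. Among these are the classes of spacing, the widths and scores in and out of clusters, and the scores by width. The share of the highest-scoring sites and the score percentiles given are also of that list only.

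ORC2 sites on the X were packed into clusters and separated by long empty stretches, more so than on any other large arm. This held, at the cluster and stretch sizes used here, in both replicate lists and in the whole-series list, which depends on them. Neighbouring whole-series sites on the X were a median of 8124 bp apart, against 8916 to 10657 bp on the other arms. In replicate 1 the median distance was 5591 bp on the X and 5693 to 7215 bp elsewhere. In replicate 2 it was 4187 bp on the X and 5112 to 5344 bp elsewhere. Whole-series neighbours under 1 kb apart were as frequent on the X as on the pooled other arms (18.5% and 18.6% of distances). The X had more distances of 1 to 5 kb (22.6% against 19.6%) and of 150 kb or more (3.91% against 3.16%). The number of sites per Mb was close to that elsewhere: the X had 33.2 whole-series peaks per Mb against 35.4 on the pooled other arms, 51.8 against 55.9 in replicate 1 and 60.3 against 59.7 in replicate 2. The single other arms had 32.9 to 38.3 in the whole-series list, 54.0 to 57.8 in replicate 1 and 56.4 to 63.7 in replicate 2. The X was thus the lowest arm in replicate 1 only. The sites covered 199 kb, or 0.889% of the X, against 0.853 to 0.947% of the other arms.

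The unevenness also showed in windows of 100 kb. The variance of the whole-series count per window was 3.77 times its mean on the X and 2.90 to 3.37 times on the other arms. It was 4.46 against 3.38 to 4.16 in replicate 1, and 5.04 against 3.98 to 4.62 in replicate 2. Of the 225 windows of the X, 57 (25.3%) held no whole-series peak, against 14.0 to 22.4% on the other arms. In replicate 1 the share of empty windows on the X, 12.9%, was below that on 3L (13.4%), so this measure did not set the X apart in each list. In replicate 2 it was 15.6% on the X and 8.24 to 13.0% elsewhere.

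Along the arm, from the distal end to the centromere, sites were least frequent next to the centromere. Cut into 5 equal parts, the X had 30.1, 38.4, 40.6, 30.1 and 26.6 whole-series peaks per Mb. The same parts had 50.6, 56.4, 62.0, 48.9 and 40.8 per Mb in replicate 1 and 56.7, 71.2, 70.1, 58.0 and 45.5 in replicate 2. The part next to the centromere was thus the lowest in each list. The corresponding part was also the lowest on 2R (22.3 whole-series peaks per Mb) and on 3L (19.2), where it was lower than on the X. The score that the authors' list gives for each peak, for which no reference level is stated, was lowest there as well. Its median over whole-series peaks was 4.35, 4.16, 3.999, 4.16 and 3.48 in the 5 parts. It was 3.43 in the last part against 3.91 to 4.31 in the others in replicate 1, and 3.52 against 3.67 to 4.26 in replicate 2. Of the other arms, 2R also had its lowest median score in the part next to its centromere (3.24 in the whole-series list), while on 2L, 3L and 3R that part scored 3.83, 3.71 and 3.62 and was not the lowest. How much of each part short reads can cover was not examined.

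**Figure D1:**
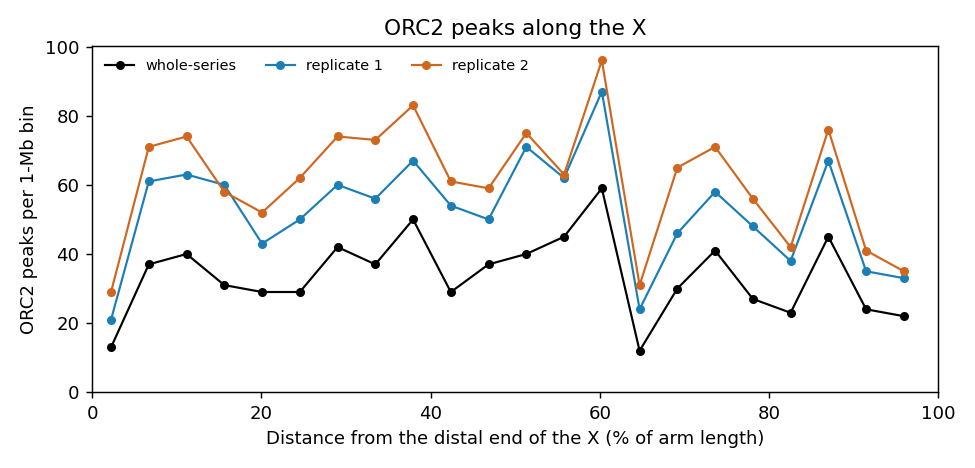
Number of ORC2 peaks in each full 1-Mb bin of the X (vertical axis) against the distance of the bin's middle from the distal end, in percent of arm length, for the whole-series list and both replicates. The lists rise and fall together, with the highest bin at 60.2% of the arm (59, 87 and 96 peaks) beside one of the lowest at 64.7% (12, 24 and 31 peaks).

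In bins of 1 Mb, counts could differ several-fold between neighbours. Whole-series counts ranged from 12 to 59 over the 22 full bins, with a median of 34. The bin from 13000001 to 14000000 held most: the whole-series list had 59 peaks there, replicate 1 had 87 and replicate 2 had 96. The next bin, from 14000001 to 15000000, held 12, 24 and 31, the fewest of the whole-series list and the second fewest of each replicate. The bin from 8000001 to 9000000 held 50, 67 and 83, the second highest in the whole-series list and in replicate 2, and the bins from 12000001 and from 19000001 held 45 whole-series peaks each. At the distal end the first bin held 13 whole-series peaks (21 and 29 in the replicates), but these had the highest median score of any full bin, 5.71. The bin from 21000001 held 22. Over the 22 bins, the counts of the replicates had a Spearman's rho of 0.919, as a description, since both samples share the cell line and its mappable sequence.

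Of the X sites, 292 of 743 (39.3%) lay in 70 clusters of at least 3 peaks with no more than 5 kb between neighbours. The background share, over 2L, 2R, 3L and 3R pooled, was 35.6%, and the single arms lay between 34.1 and 37.6%. In replicate 1 the share was 48.4% on the X and 41.7 to 47.2% on the other arms, and in replicate 2 it was 55.9% against 48.6 to 51.1%. Most clusters were small: 36 had 3 peaks, 18 had 4, and 8 had 6 or more. On the X, clustered sites were wider than the rest, with a median of 240.5 bp against 186 bp, and 15.4% of them were 500 bp or more against 5.54% outside clusters. The pooled other arms had close values, 230 bp and 171 bp for the widths and 15.1% and 6.22% for the broad shares.

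The largest cluster of the X lay near its middle with other clusters within 100 kb, and together they spanned FlyBase release 5 coordinates 12543596 to 12650781. These 107 kb, 0.478% of the X, held 36 whole-series peaks, 4.85% of all on the arm, with 44 in replicate 1 and 46 in replicate 2. The clusters were 3 in number, with 11, 6 and 15 peaks. The last, at 12627802 to 12650781, was the largest on the X. Its 15 peaks covered 42.2% of the cluster's 22980 bp, 8 of them were at least 500 bp wide, and their median width was 513 bp against 205 bp for the whole X. Their scores ran from 1.80 to 5.82 with a median of 4.01, close to the X median of 4.04. Replicate 1 had 19 peaks in it, of which 2 had no partner, and replicate 2 had 18, of which 3 had none. The widest peaks of the cluster were at 12645475 to 12646861 (1387 bp, score 3.35) and 12629130 to 12630506 (1377 bp, score 4.11). The highest-scoring in the whole-series list was at its end, at 12650391 to 12650781, with 4.54 in replicate 1 and 7.10 in replicate 2. In replicate 1 the site at 12649517 to 12650029 scored highest, with 5.05. The 11-peak cluster at 12543596 to 12563978 had a median score of 3.23, and the 6-peak cluster at 12610009 to 12622402 had one of 2.86. The site with the lowest score of the whole X, at 12570565 to 12571326 (score 1.42; 1.40 and 1.45 in the replicates), also lay in this region, and so did 3 more of the 5 lowest.

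**Figure D2:**
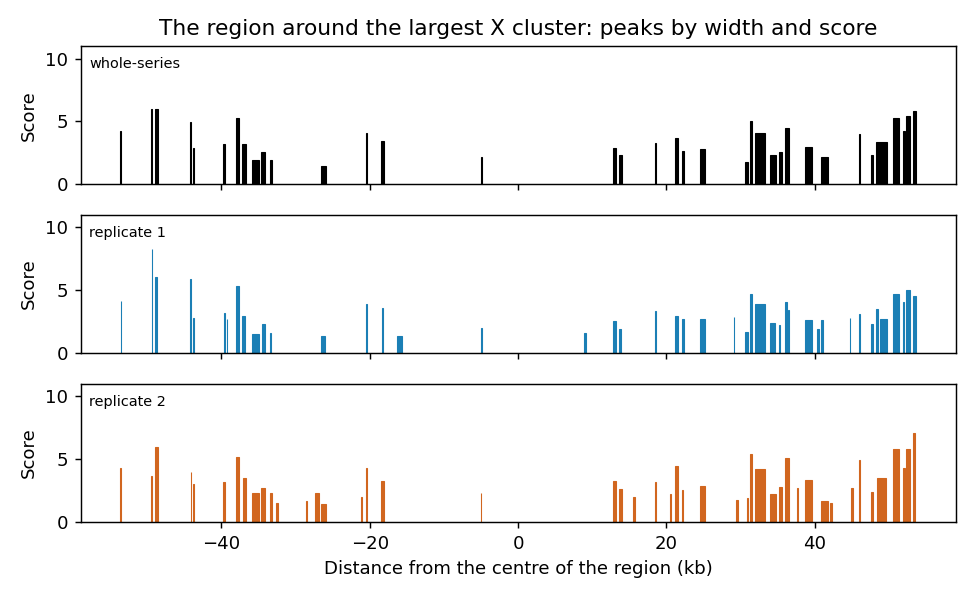
The region around the largest cluster of the X in the whole-series list (top), replicate 1 (middle) and replicate 2 (bottom): each bar is a peak, drawn to its width, with its score as height, against the distance from the centre of the region in kb. The 3 clusters of 11, 6 and 15 whole-series peaks stand at the left, to the right of the centre and at the far right, with 8 of the last 15 at least 500 bp wide.

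The other named clusters differed in the scores of their sites. The second largest, at 8781526 to 8801226, had 14 peaks over 19701 bp with a median score of 3.18. It had 16 and 19 peaks in the replicates. A pair of 7-peak clusters scored higher. The cluster at 2536750 to 2546743 had a median score of 5.58 and a highest score of 9.35, and its sites were narrow, with a median of 194 bp. The cluster at 3633738 to 3643074 had a median score of 4.19 and a median width of 340 bp. A 6-peak cluster at 13782999 to 13788070 was the tightest of the 8 named, with 1.18 peaks per kb, and scored 3.10. The 6-peak cluster at 7193756 to 7206452 had a median score of 4.89, and a stretch of 296 kb without a whole-series peak followed directly on it.

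Stretches of at least 150 kb without a whole-series peak took up 7.38 Mb, or 33.0% of the X, in 29 stretches, against 23.0 to 31.0% on the other arms. The single lists set the X further apart. Such stretches made up 22.2% of the X in replicate 1 (23 stretches) against 11.2 to 15.1% on the other arms. In replicate 2 they made up 20.4% of the X (20 stretches) against 11.9 to 13.9%. The X was thus above every other large arm in each list, and by most in the lists that had not been reduced to shared peaks.

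**Figure D3:**
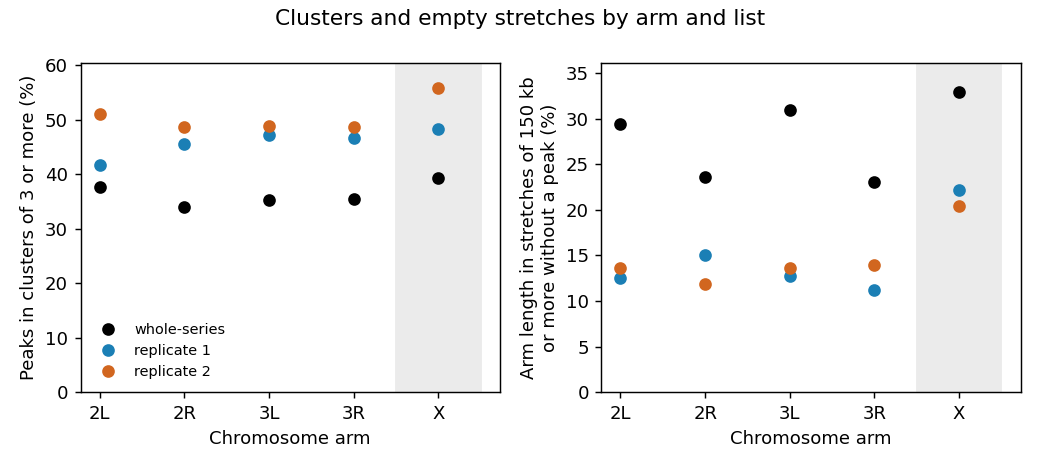
For each large arm and list, the percent of peaks in clusters of at least 3 (left) and the percent of arm length in stretches of at least 150 kb without a peak (right); the X is shaded. The X is highest in each list in both panels, with 48.4 and 55.9% of replicate peaks in clusters and 22.2 and 20.4% of its length in empty stretches.

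The longest stretches were spread over the whole arm. The longest, 21245382 to 21857549, was 612 kb long and lay close to the centromere, and a second proximal one followed at 21893543 to 22256992 (363 kb). In the first, replicate 1 had no peak and replicate 2 had 1; in the second they had 4 and 3. The stretch at 14105547 to 14547787 (442 kb) had 4 and 6 peaks in the replicates, none wider than 148 bp. On the distal part of the arm lay 2632954 to 3028692 (396 kb, 1 and 3 peaks) and 945678 to 1293768 (348 kb, 3 and 3 peaks). The stretch at 12097915 to 12467748 (370 kb, 2 and 0 peaks) lay just distal of the region around the largest cluster. Only 2 of the 29 stretches, at 20631713 to 20899151 (267 kb) and 11923179 to 12097741 (175 kb), had no peak in either replicate. Over all 29, replicate 1 had 7.45 peaks per Mb and replicate 2 had 11.9, against 17.8 and 26.7 per Mb for X peaks of the same lists without a partner over the whole arm. Peaks called once were therefore sparse in these stretches as well, and mappability was not examined.

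X sites were slightly wider than those elsewhere. The median whole-series width was 205 bp on the X (interquartile range 133 to 340 bp), compared with 184 to 193 bp on the other arms. The single lists barely differed, at 103.5 bp against 100 to 101 bp in replicate 1 and 105 bp against 100 to 105 bp in replicate 2. Narrow peaks were less frequent on the X: 18.5% of replicate 1 peaks were under 50 bp against 21.4 to 25.0% elsewhere, and 20.7% of replicate 2 peaks against 21.5 to 24.0%. Broad whole-series sites of 500 bp or more numbered 70, or 9.42%, which is near the background of 9.39%. The widest was at 1375886 to 1377508 (1623 bp), a site of low score (2.18) that replicate 1 had as 1 peak and replicate 2 as 2. The next, at 5795430 to 5797030 (1601 bp), had a score of 5.33 and lay 373 bp from another of the widest, at 5797404 to 5798676 (1273 bp, score 3.67). A site at 8787615 to 8788970 was 1356 bp wide with a score of 3.24, and one at 19759993 to 19761259 was 1267 bp wide and scored 3.11. The eighth widest, at 16316699 to 16317915, scored 3.03. At this site the replicates differed in extent, with 244 bp in replicate 1 and 1217 bp in replicate 2. Of the X sites, 26 (3.50%) joined more than 1 peak of a replicate, against 2.60% on the other arms.

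Scores were higher on the X from the 10th to the 90th percentile, though not at the extremes. The median over whole-series sites was 4.04 on the X, and 3.49 to 3.77 were the medians of the other arms. In replicate 1 it was 3.91 against 3.23 to 3.45, and in replicate 2 it was 3.97 against 3.43 to 3.68. The 10th percentile was 2.72 on the X and 2.38 to 2.56 elsewhere, and the 90th percentile was 7.39 on the X and 5.85 to 6.49 elsewhere. The highest whole-series score of the X, 21.8, was below that of 2R, 33.3, and its lowest, 1.42, was below those of 2L and 3R. Against the pooled arms the median was higher by 0.427 in the whole-series list, 0.602 in replicate 1 and 0.424 in replicate 2. Of the 100 highest-scoring whole-series sites of the 5 large arms, 31 were on the X, which held 17.9% of all their sites. The gap did not follow width: it was 0.547 for sites under 100 bp, 0.385 for 100 to 199 bp, 0.464 for 200 to 399 bp and 0.444 for 400 to 799 bp. Only the 22 X sites of 800 bp or more scored lower than their 74 counterparts, with a difference of medians of -0.315.

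**Figure D4:**
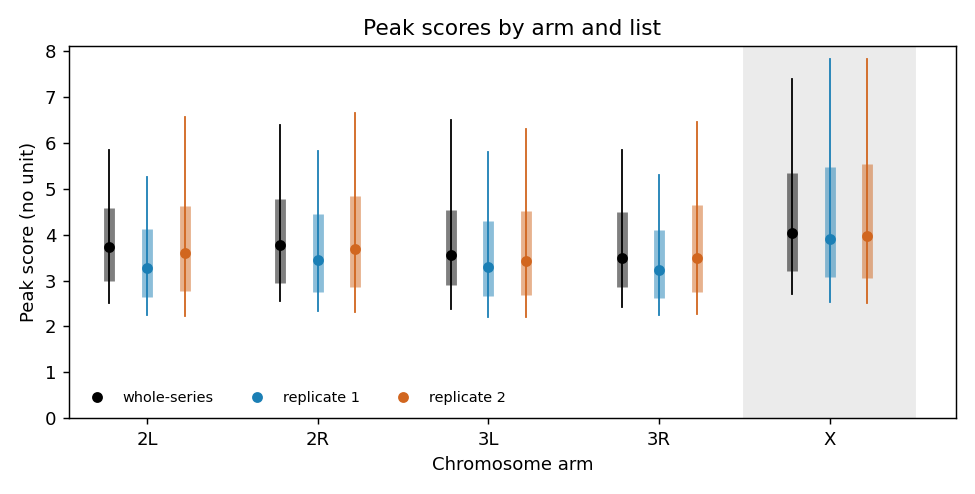
Peak scores on each large arm in the 3 lists: points are medians, thick bars interquartile ranges and thin lines the span from the 10th to the 90th percentile; the X is shaded. The X medians of 4.04, 3.91 and 3.97 are above those of the other arms in the same list.

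The scores themselves carry information on how they were made. In each replicate list and on each large arm, 92.9 to 96.6% of scores were a ratio of whole numbers, with a denominator of at most 60, times a single factor of that arm. On the X the factor was 1.96 in replicate 1 and 1.70 in replicate 2, inside the ranges of the other arms (1.94 to 2.15 and 1.66 to 1.90). Scores of other arms matched the factor of the X in at most 2.08% of cases. The commonest score on each of the 5 arms in both lists was 2 times the factor, as in 46 X peaks of replicate 1 at 3.91. With scores divided by the factor of the arm, the X median stayed higher, by 0.509 over sites matched one to one, on a scale set by the mean factor of the 5 arms. Reduced to lowest terms, the whole numbers of X scores were smaller, while the numbers before reduction are not known. In lowest terms, the median numerator was 19 on the X and 23 on the pooled other arms in replicate 1, and 21 against 28 in replicate 2. The median denominator was 9 on the X and 14 on the other arms in both. What the numbers count is not stated in the files; the caller named there, PeakSeq, compares immunoprecipitated with control reads. Among peaks whose score was such a ratio, a denominator of 1 was found for 10.6% on the X against 5.29% elsewhere in replicate 1, and for 9.20% against 5.46% in replicate 2. Within classes of the denominator the score difference was largest at denominators of 1 to 5, with 1.12 in replicate 1 and 0.967 in replicate 2. It was 0.549 and -0.170 at 6 to 10, 0.293 and 0.222 at 11 to 20, and 0.231 and 0.156 at 21 to 60. The X median was thus the higher in 7 of 8 comparisons, but by little at large denominators. The denominator, in lowest terms, is itself part of the score, so these classes do not hold the underlying numbers fixed. Whether the numbers before reduction were smaller on the X is not known. Their part in the higher scores, and that of the copy number of the X in these cells, was not tested.

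The 10 X sites with the highest scores were spread over the arm from 653375 to 17714481, and they were between 109 and 550 bp wide. The first, at 16692339 to 16692466, scored 18.6 in replicate 1 and 25.1 in replicate 2, where it ranked 10 and 5 among X peaks. The second, at 4803939 to 4804060, scored 17.6 and 15.6. The third, at 7954962 to 7955270, scored 15.3 and 16.6 and belonged to a 5-peak cluster. The site at 4318985 to 4319492 was one of 2 among the 10 that exceeded 500 bp (508 bp; 15.8 and 13.9), the other being at 16041627 to 16042176 (550 bp; 13.3 and 14.2). The site at 1293769 to 1293885 (13.7 and 15.8) stood alone, with its nearest neighbour 78620 bp away, at the end of a 348 kb empty stretch. The site at 15547708 to 15547816 (12.4 and 17.0) had its nearest neighbour 27068 bp away. The remaining 3, at 653375 to 653606, 13277902 to 13278142 and 17714345 to 17714481, had replicate 1 scores of 11.2 to 13.9 and replicate 2 scores of 15.6 to 15.8. Sites more than 50 kb from both neighbours numbered 27 and had a median score of 4.89, against 3.94 for clustered sites. On the other arms these medians were 4.10 and 3.55, so isolated sites scored higher there too.

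Of the 1160 X peaks of replicate 1, 761 (65.6%, exact binomial 95% interval 62.8 to 68.3%) shared at least 1 bp with a replicate 2 peak, near the background of 64.3% on the pooled other arms. Of the 1351 X peaks of replicate 2, 752 (55.7%, interval 53.0 to 58.3%) were touched by replicate 1, against 60.1% on the pooled other arms and 58.5 to 62.8% on the single arms. The X was thus the arm with the lowest share in replicate 2, and it was second highest in replicate 1. The shared peaks were nearly equal in number in both lists (761 and 752), so the shares depend on list length by construction. The X list grew from 1160 to 1351 peaks between the replicates, and that of the pooled other arms from 5390 to 5764. The X peaks of replicate 2 that found no partner numbered 599, against 399 in replicate 1. The intervals cover the counting of peaks only and treat them as independent. By width, X peaks of replicate 2 were touched less often than those of the other arms in each of 6 classes. The gap was widest at 50 to 99 bp (35.8% against 44.5%) and 100 to 199 bp (71.2% against 79.5%), and was not tested. In replicate 1 the X was lower in 3 of the 6 classes, including 100 to 199 bp (83.1% against 87.2%).

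**Figure D5:**
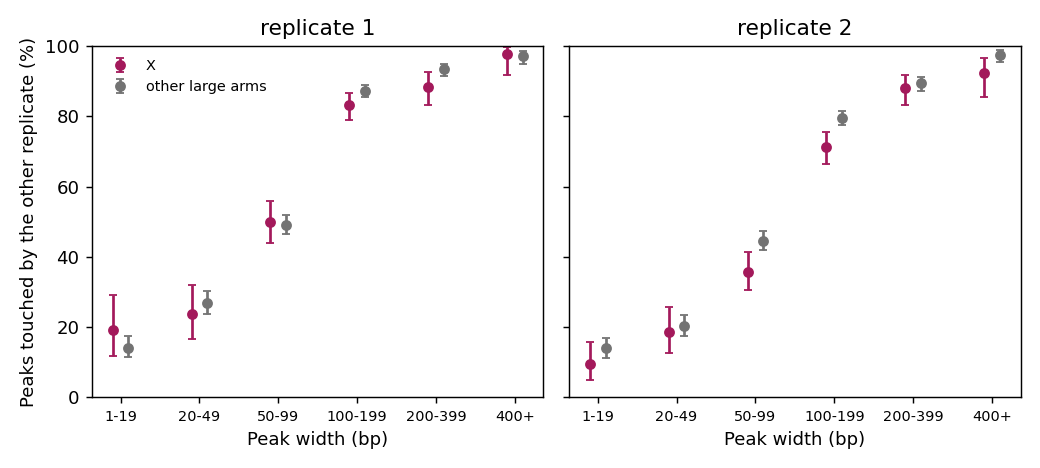
Percent of peaks that shared at least 1 bp with a peak of the other replicate, by peak width, for the X and the pooled other large arms in replicate 1 (left) and replicate 2 (right); error bars are exact binomial 95% intervals. Shares rise with width on both, and in replicate 2 the X lies lower, most at 50 to 99 bp (35.8 against 44.5%).

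Score separated the shared from the unshared X peaks less than on the other arms. In replicate 1 both classes had a median score of 3.91 on the X, against 3.48 and 3.02 on the pooled other arms. The equal X medians fall on a tie, since 3.91 was the commonest X score of that list, with 46 peaks. In replicate 2 the medians were 4.04 and 3.78 on the X, against 3.74 and 3.22. Width separated them on the X as elsewhere, with 144 and 60 bp in replicate 1 and 165 and 64 bp in replicate 2. Of the 10 highest-scoring X peaks of each replicate, 1 was touched by the other sample, and of the 100 highest, 53 were in replicate 1 and 51 in replicate 2. These counts were made for the X only, so they do not compare it with the other arms. The highest-scoring unshared peaks were short. In replicate 1 the first 4 were at 10523917 (7 bp, score 29.4), 3797619 (52 bp), 14667456 (20 bp) and 18513045 (10 bp), the last 3 all with a score of 25.4. In lowest terms their ratios were 15 to 1 for the first and 13 to 1 for the others. In replicate 2 they were at 1170001 (1 bp, score 30.7), 8301328 (16 bp, 28.9), 3645069 (17 bp, 27.2) and 16229436 (8 bp, 25.5), and each again had a denominator of 1. The last of these lay 14 bp from a replicate 1 peak.

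For the 717 X sites with 1 peak in each sample, the replicate scores had a Spearman's rho of 0.756, against 0.755 to 0.794 on the other arms. Replicate 2 scored higher at 423 of them (59.0%), and the log2 ratio of replicate 2 to replicate 1 had a median of 0.07 and an SD of 0.39. On the pooled other arms these values were 62.4%, 0.11 and 0.34. Scores within 1.5-fold of each other were found at 85.5% of X sites and at 89.7% elsewhere. The scores may share a control, so the correlation is given as a description. More than 2-fold apart were 13 X sites (1.81%) and 26 sites on the other arms (0.781%). Replicate 2 was the higher by most at 9494951 to 9495263 (4.49 and 12.1) and at 17715646 to 17715849 (3.30 and 7.62). Replicate 1 was the higher by most at 12547734 to 12547809 (8.32 and 3.69), inside the region around the largest cluster, and at 11245356 to 11245526 (10.2 and 4.80). The peak at 12547734 was only 13 bp wide in replicate 1 and 68 bp in replicate 2. At 11245356 the widths were 113 and 122 bp.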

How the data were processed

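ORC2 ChIP-seq of S2-DRSC cells was analysed from 3 peak lists, 1 per ORC2 sample and 1 for the whole series. Per the file headers, coordinates are FlyBase release 5. Each peak names PeakSeq as its caller and has a score, which the authors deposited without a stated reference. The sources used here name no aligner, threshold or control. No counts are listed, so depth is unknown. Genes and sequences were not assigned, since the gene table at hand is of release 6.

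Each arm was taken to end where the last peak on it, in whichever list, ends. Overlap meant at least 1 bp. Score factors were found by seeking, per arm and list, the factor for which most scores are whole-number ratios (relative tolerance 3e-06, denominators up to 60) and for which 2, 3 and 5 divide numerators and denominators about equally often. Overlap, clusters, stretches and factors were tested on simulated data, where 11 of 11 steps gave the planted answer. Named regions were, by rule, the 10 highest and 5 lowest scores, the 8 widest sites, 8 largest clusters and 8 longest stretches, the 3 fullest and 3 emptiest 1-Mb bins, the 5 highest unshared peaks per replicate, and the 5 largest and 5 smallest replicate ratios. The text gives part of these. The sites, lists and comparisons were chosen with earlier results of these data known. Tools were matplotlib 3.10.9, scipy 1.17.1, numpy 2.4.6, pandas 2.3.3 and Python 3.11.15.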

Additional observations from a re-analysis of the deposited data

How the results depend on the processing

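Requiring 50% of both peaks in common changed the shared X peaks to 45.3% of replicate 1 and 38.9% of replicate 2 and rho to 0.809; centres within 500 bp gave 73.1% and 64.0%, and the top-scoring 50% of each list 53.7%, 50.7% and 0.633. With the top-scoring 50% of the whole-series list, the X had 19.9 peaks per Mb, 25 clusters, 36 stretches, a width difference of 22 bp and a variance over mean of 2.39. With each replicate alone, density was 51.8 to 60.3 per Mb, the score difference 0.424 to 0.602, the width difference 2 to 3.5 bp (18 bp in the whole-series list), clusters 125 to 153, stretches 20 to 23 and variance over mean 4.46 to 5.04. Means in place of medians gave differences of 0.603 in score and 14.6 bp in width. Averaged over classes of the denominator, chosen after seeing the data, the score difference was 0.487 in replicate 1 and 0.296 in replicate 2. In replicate 2 the class of 6 to 10 went the other way (-0.170). The denominator is part of the score, so these classes do not hold the underlying numbers fixed. Joining at 2 kb left 34 clusters and at 10 kb gave 93; minimum lengths of 100 kb and 200 kb gave 58 and 18 stretches. Variance over mean was 3.30 in 50 kb windows, 4.47 in 500 kb windows and 2.60 with peaks under 1 kb apart merged. Fewer or more peaks enter these counts by construction, and other causes were not tested. Apart from the single replicates, the alternatives for clusters, stretches and variance over mean are given for the X only. The rank of the X among the arms was thus not checked at them. With the denominator classes averaged, the X minus other arms differences in score and width kept their sign under the alternatives run. The difference in density was below 0 in the whole-series list and replicate 1 but above 0 in replicate 2. No paired analysis was possible because the ORC2 samples form a single group, and the input was not analysed here. Planned annotation of named sites was not run, for want of a release 5 genome.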
